A study of Arabidopsis thaliana with 18 samples.

Results

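The 5 genes described here maintain plant stem cells: WUS (WUSCHEL, AT2G17950), WOX5 (AT3G11260), CLV1 (AT1G75820), CLV2 (AT1G65380) and CLV3 (AT2G27250). They were chosen by name, as 5 of 37899 annotated genes on the 5 nuclear chromosomes. Acetylated forms of histone H3, carrying the mark on lysine 9 (H3K9ac) or on lysine 14 (H3K14ac), were mapped over them by chromatin immunoprecipitation and sequencing in whole seedlings of *Arabidopsis thaliana*, ecotype Col. The groups were hda9-1, a mutant of the histone deacetylase gene HDA9, pwr-2, a mutant of POWERDRESS, a SANT-domain protein, and WT with neither lesion. All seedlings were 10 days old and were grown on agar plates at 23 °C under a daily cycle of 16 h light and 8 h dark. H3K9ac had 2 libraries per genotype, which the series describes as biological replicates, and H3K14ac had 1 library per genotype, so its differences have no replicate check. Nothing says that the replicates were separate plantings, so p-values measure only the spread between these libraries. The 9 input samples were not analysed here, and peak lists do not test the genotypes.

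In the shoot tip, WUS is a homeodomain transcription factor made in the organizing centre, from where it sustains the stem cells above. Those stem cells secrete the CLV3 peptide, which is perceived by the receptor kinase CLV1 and by CLV2, a receptor-like protein that lacks a kinase domain, and this signalling restricts WUS. WOX5 is the relative of WUS that acts in the quiescent centre of the root. Acetylation of histone H3 is a mark of active genes, and WUS, WOX5 and CLV3 are each known to be expressed in few cells of a seedling. In whole seedlings, a mark held by few cells and a weak mark in many cells cannot be told apart.

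The receptors carried acetylation in every library, while the transcription factors and the peptide gene carried almost none. Peaks lay over CLV1 and CLV2 in 9 of 9 libraries. WUS had no base inside a peak in any of the 9, WOX5 had 40 bp in 1 library, and CLV3 was covered in 1 library. By the marking rule described below, 2 of the 5 were marked with H3K9ac in all 6 libraries and 2 in none. The shares were 32.1% and 42.4% over all genes, and 39.8% and 31.8% over protein-coding genes. With 5 genes, counts near these shares do not set the group apart. None of the 5 genes gained or lost either mark in hda9-1 or pwr-2 by the rule used for all genes.

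That rule called a gene marked in a library where the 500 bp at one gene end or the other lay inside peaks over at least 50% of their length. A gene was gained where every mutant library and no WT library was marked, and lost in the reverse case. For H3K9ac in hda9-1, 0 of the 5 genes were gained and 0 lost, against 3.83% and 0.438% of all genes. In pwr-2 the counts were also 0 and 0, against 2.08% and 0.599% of all genes. For H3K14ac, 0 were gained and 0 lost in hda9-1, against 10.3% and 4.66% of all genes. In pwr-2, H3K14ac was gained at 0 and lost at 0 of the 5, against 10.9% and 4.17%. Both mutants were set against the same WT libraries throughout.

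The libraries differed in depth. H3K9ac peaks held 12265470 and 18171153 reads in hda9-1, 3757931 and 8873855 in pwr-2, and 1948253 and 2223676 in WT. H3K14ac peaks held 875104 reads in hda9-1, 1090139 in pwr-2 and 667780 in WT. The smallest H3K9ac peak held 116 and 144 reads in hda9-1, 46 and 85 in pwr-2, and 33 and 32 in WT, so a gene with no peak was one where no peak was detected at that depth. Of 4 photosynthesis genes, 3 (RBCS1A, LHCA1 and PSBO1) were marked with H3K9ac in all 6 libraries and CAB1 in some, while 4 of 4 seed genes had no peak base in any library. The same 4 photosynthesis genes had no base in an H3K14ac peak.

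**Figure D1:**
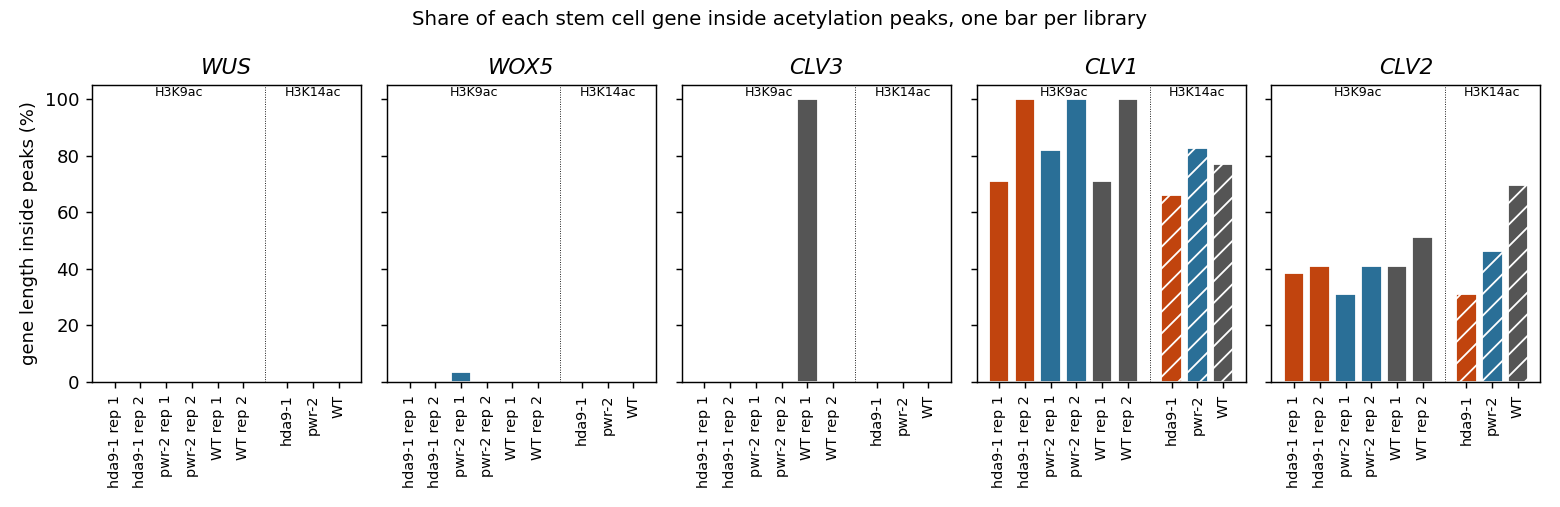
Share of each gene's length inside peaks (vertical axis, %), with 1 bar per library, H3K9ac plain and H3K14ac hatched. CLV1 and CLV2 have a bar in all 9 libraries, CLV3 a single bar at 100% in WT replicate 1, WOX5 a single bar at 3.45% in pwr-2 replicate 1, and WUS none.

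WUS stood in a stretch without peaks. The nearest H3K9ac peak lay 6271 bp from the gene in both hda9-1 libraries, 2271 and 6271 bp away in pwr-2 replicates 1 and 2, and 9790 and 9990 bp away in WT replicates 1 and 2. The peak nearest to WUS of all these, in pwr-2 replicate 1 at 7805201 to 7806600 on chromosome 2 (TAIR10), held 155 reads. For H3K14ac the nearest peak was 6471 bp away in hda9-1 and in pwr-2, and 9990 bp away in WT. In every mutant library the nearest peak lay closer to WUS than in any WT library, on the side of lower coordinates, but none reached the gene. How many of all genes show such a separation was not counted. For both marks, the mutant peaks held more reads and covered more of the genome than those of WT. Whether depth had a part in the distances was not tested. The absence of any peak base was common: 13240 of 37899 genes (34.9%), and 23.7% of protein-coding genes, had none in any of the 9 libraries.

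WOX5 bordered an acetylated neighbour. MEE34 (AT3G11270), the next gene on the side of higher coordinates, carried a peak near its WOX5-facing end in all 9 libraries. The nearest H3K9ac peak began 361 bp beyond WOX5 in both hda9-1 libraries, overlapped the last 40 bp in pwr-2 replicate 1, began 561 bp beyond it in pwr-2 replicate 2, and began 561 bp beyond it in both WT libraries. H3K14ac followed the same layout, with the nearest peak 361 bp away in hda9-1, 561 bp in pwr-2 and 561 bp in WT. The H3K9ac peaks of MEE34 therefore reached 200 bp or more closer to WOX5 in 3 of 4 mutant libraries than in WT, which is 1 step of the grid on which peak ends move. How many of all genes show such a shift was not counted. In every mutant library, H3K9ac peaks covered more of the genome than in either WT library. The overlapping peak of pwr-2 replicate 1 (chromosome 3, 3528401 to 3529600) held 148 reads and covered 3.45% of WOX5.

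CLV3 was covered in 1 of the 9 libraries. Covered length for H3K9ac was 0 and 0 bp in hda9-1, 0 and 0 in pwr-2, and 820 and 0 bp in WT. In WT replicate 1 a peak of 3800 bp (chromosome 2, 11664201 to 11668000) spanned the whole gene of 820 bp and no other gene. Mean cover was 0 ± 0 bp in hda9-1, 0 ± 0 bp in pwr-2 and 410 ± 580 bp in WT (SD, n = 2 each). The difference was -410 bp for each mutant (exact permutation test, two-sided, p = 1). With cover in 1 library alone, this test allows no other p, and the difference is always below the SD. Neither can therefore decide whether the mutants differ from WT. Without WT replicate 2, CLV3 would count as lost in both mutants, and without WT replicate 1 the difference would be 0.

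The CLV3 peak was thin. It held 190 reads, or 50.0 reads per kb, which was 0.566 times the median peak of its library. Only 0.103% of the peaks in that library had a lower density, while its width lay above 89.1% of them. Peaks as thin relative to their own library or thinner numbered 18 and 13 in hda9-1, 29 and 84 in pwr-2, and 19 (the CLV3 peak included) and 47 in WT. The other libraries had their nearest H3K9ac peak 3804 bp beyond CLV3 in all 4 mutant libraries and 4004 bp beyond it in WT replicate 2. H3K14ac did not reach CLV3 either, with nearest peaks 3004 bp away in hda9-1, 3804 bp in pwr-2 and 4004 bp in WT.

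**Figure D2:**
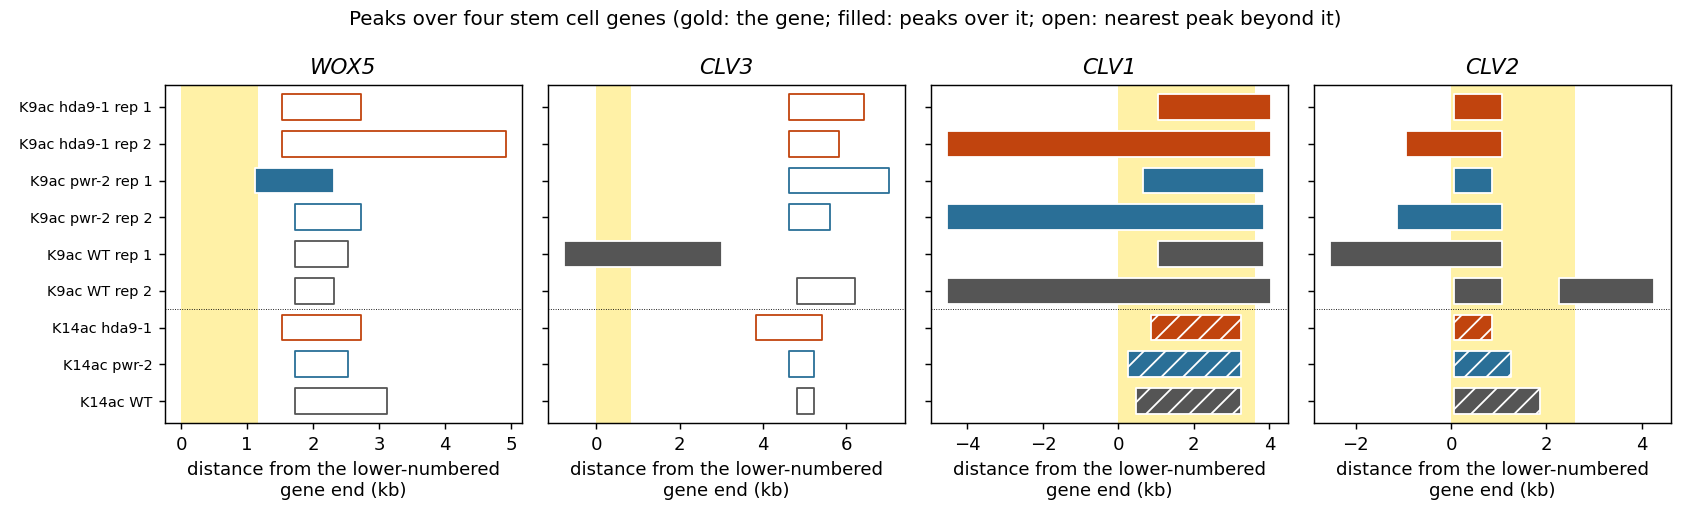
Peaks over WOX5, CLV3, CLV1 and CLV2 by distance from the lower-numbered end of the gene (horizontal axis, kb), with 1 row per library. Filled bars are peaks over the gene, open bars the nearest peak beyond it, and gold marks the gene. CLV1 shows a narrow and a wide peak within each genotype, and CLV2 is covered at its lower-numbered end in every library.

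CLV1, the receptor kinase of the pathway, was the most fully covered of the 5 genes. H3K9ac peaks covered 70.9% and 100% of it in hda9-1, 81.9% and 100% in pwr-2, and 70.9% and 100% in WT. Within every genotype replicate 1 was the lower and replicate 2 the higher, so the groups overlapped completely. Mean cover was 3099.5 ± 747 bp in hda9-1, 3299.5 ± 465 bp in pwr-2 and 3099.5 ± 747 bp in WT, of a gene of 3628 bp (SD, n = 2 each). The difference from WT was 0 bp for hda9-1 and 200 bp for pwr-2, below the spread between replicates (exact permutation tests, two-sided, p = 1 for each; the smallest p that 2 against 2 libraries allow is 0.333).

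The peak over CLV1 was separate in each replicate 1 and continuous with the peak over its neighbours in each replicate 2. The replicate 1 peaks ran from 28464401 to 28467400 in hda9-1, from 28464001 to 28467200 in pwr-2 and from 28464401 to 28467200 in WT, on chromosome 1. The replicate 2 peaks ran from 28458801 to 28467400 in hda9-1, from 28458801 to 28467200 in pwr-2 and from 28458801 to 28467400 in WT, and took in AT1G75800 and AT1G75810. The lower-numbered peak ends therefore differed more between replicates than between genotypes. The higher-numbered ends lay at 28467400 in both hda9-1 libraries, at 28467200 in both pwr-2 libraries, and at either position in WT.

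H3K14ac over CLV1 sat inside the gene. It covered 66.2% of CLV1 in hda9-1, 82.7% in pwr-2 and 77.2% in WT, or 2400, 3000 and 2800 bp. In all 3 libraries the peak ended at 28466600, 600 to 800 bp short of the H3K9ac peaks on that side. CLV1 did not count as marked with H3K14ac in any library, although most of the gene was covered. Of the higher-numbered end window, 25.8% lay in a peak in each library. Of the lower-numbered end window, 0% did in hda9-1, 48.6% in pwr-2 and 8.6% in WT, so pwr-2 fell just short of the 50% limit and of a gain. With a limit of 25% in place of 50%, CLV1 was marked with H3K14ac in 3 of 3 libraries.

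CLV2, the receptor-like protein, was covered at 1 end. H3K9ac peaks covered 38.6% and 40.9% of the gene in hda9-1, 30.9% and 40.9% in pwr-2, and 40.9% and 51.4% in WT. The value of 40.9% occurred in 1 library of each genotype, so the groups met or overlapped. Mean cover was 1029.5 ± 41.7 bp in hda9-1, 929.5 ± 183 bp in pwr-2 and 1194 ± 191 bp in WT, of a gene of 2588 bp (SD, n = 2 each). The differences were -164.5 bp for hda9-1 and -264.5 bp for pwr-2 (exact permutation tests, two-sided, p = 0.667 for each). Because of the value shared between the groups, 0.667 is the smallest p that this test could give here. It therefore cannot decide whether the mutants differ from WT.

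The highest H3K9ac value of CLV2, in WT replicate 2, came from an extra peak at the other end of the gene (chromosome 1, 24289001 to 24291000, 144 reads) that also covered the transcribed pseudogene AT1G65385. At the lower-numbered end, every H3K9ac peak ended at 24287800 except that of pwr-2 replicate 1, which ended at 24287600. The H3K14ac peak of CLV2 began at 24286801 in all 3 libraries and was 800 bp wide in hda9-1, 1200 bp in pwr-2 and 1800 bp in WT. H3K14ac thus covered 30.9% of CLV2 in hda9-1, 46.4% in pwr-2 and 69.6% in WT. WT had the widest of these peaks, and there is no replicate of any of them.

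Read density over CLV1 was close to that of the library's median peak or above it, and that over CLV2 varied more. Over CLV1, H3K9ac density was 1.22 and 1.01 times the library's median peak in hda9-1, 0.995 and 0.978 times in pwr-2, and 1.20 and 1.04 times in WT. Over the lower-numbered end of CLV2 it was 1.24 and 0.881 times the median in hda9-1, 1.31 and 0.814 times in pwr-2, and 0.601 and 1.11 times in WT. The denser CLV2 peaks were the narrow ones of 800 and 1000 bp, and the widest, of 3600 bp in WT replicate 1, was the thinnest, with 0.592% of the peaks of its library at a lower density. The second CLV2 peak of WT replicate 2 had 0.738 times the median density. H3K14ac density over CLV1 was 1.27 times the median in hda9-1, 1.26 times in pwr-2 and 1.12 times in WT. Over CLV2 it was 1.10 times the median in hda9-1, 1.11 times in pwr-2 and 0.718 times in WT.

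**Figure D3:**
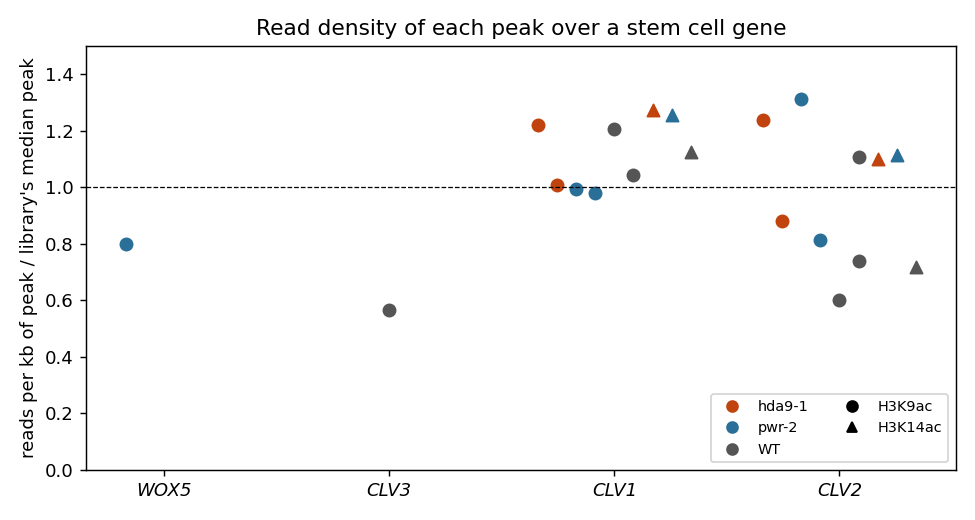
Reads per kb of each peak over a stem cell gene, divided by the median over all peaks of the same library (vertical axis, ratio), by gene, with circles for H3K9ac and triangles for H3K14ac. The peaks of CLV1 lie between 0.978 and 1.27, those of CLV2 spread from 0.601 to 1.31, and the single CLV3 peak lies at 0.566.

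Read numbers in called peaks were then compared over the merged H3K9ac regions that hold these genes. Reads outside a library's peaks are not in the lists, so these numbers also depend on how much of a region was called. The CLV1 region (chromosome 1, 28458201 to 28467400) held 3530 and 5437 reads in hda9-1, 1052 and 2854 in pwr-2, and 624 and 874 in WT. Per 1000000 reads in peaks this was 288 and 299 in hda9-1, 280 and 322 in pwr-2, and 320 and 393 in WT. Scaled in this way, both hda9-1 libraries lay below both WT libraries, as they did in 29% of the 8332 regions tested, and pwr-2 overlapped WT. The log2 change was -0.23 ± 0.14 in hda9-1 and -0.22 ± 0.14 in pwr-2 (SE), with adjusted p = 0.565 and 0.509 in edgeR's quasi-likelihood test with Benjamini-Hochberg adjustment over 8332 regions. Per covered bp the changes were -0.06 ± 0.09 and -0.20 ± 0.09 (edgeR, adjusted p = 0.827 and 0.366). The region also holds AT1G75800, AT1G75810 and the non-coding AT1G09577, and the reads of CLV1 alone are not known where 1 peak spans them.

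The CLV2 region (chromosome 1, 24284201 to 24287800) held 559 and 1104 reads in hda9-1, 162 and 622 in pwr-2, and 191 and 108 in WT. Per 1000000 reads in peaks this was 45.6 and 60.8 in hda9-1, 43.1 and 70.1 in pwr-2, and 98.0 and 48.6 in WT. Both mutants overlapped WT, whose libraries differed from each other by more than those of hda9-1 or pwr-2 did. The log2 change was -0.40 ± 0.38 in hda9-1 and -0.32 ± 0.38 in pwr-2 (SE; edgeR, adjusted p = 0.716 and 0.727). Its direction rested on WT replicate 1: without that library the changes were 0.18 and 0.25. Per covered bp the changes were 0.34 ± 0.33 and 0.32 ± 0.34 (edgeR, adjusted p = 0.729 and 0.725). The region also holds AT1G65365 and AT1G65370, both under the peak of WT replicate 1. The reads of CLV2 alone are not known where 1 peak spans them.

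Over all 8332 regions edgeR called 0 (0%) in either mutant at an adjusted p of 0.05. Before adjustment, 1016 regions in hda9-1 and 1224 in pwr-2 had p below 0.05. The test per covered bp called 1 region (0.012%) in each mutant, neither of which held a member. DESeq2 called 154 (1.85%) in hda9-1 and 204 (2.45%) in pwr-2, neither the CLV1 nor the CLV2 region among them (adjusted p of CLV1 0.770 and 0.691, of CLV2 0.807 and 0.777). WUS lay in no region, and the region of CLV3, with a peak in 1 library, was not among the 8332. With all 12753 merged regions tested, its adjusted p was 0.642 in hda9-1 and 0.614 in pwr-2 (edgeR). The CLV3 region was in that set only through its peak in WT replicate 1. Every other library entered with 0 reads, since reads outside peaks are not in the lists. That test therefore cannot decide whether CLV3 differs between mutants and WT.

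**Figure D4:**
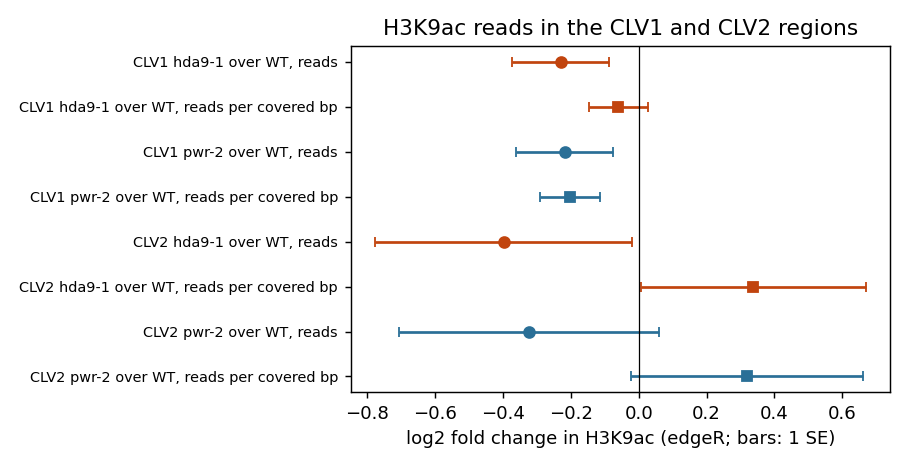
Log2 fold change of H3K9ac in the CLV1 and CLV2 regions, mutant over WT (horizontal axis), from edgeR on reads (circles) and on reads per covered bp (squares), with bars of 1 SE. Both CLV1 changes on reads lie near -0.2, and those of CLV2 lie below 0 on reads and above 0 per covered bp.

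The wider pathway was described with 43 further genes in 3 lists. Of these, 15 (34.9%) were marked with H3K9ac in all 6 libraries and 14 in none, against 32.1% and 42.4% of all genes and 39.8% and 31.8% of protein-coding genes. In hda9-1, 1 of 43 gained H3K9ac and 1 lost it, against 3.83% and 0.438% of all genes. In pwr-2, 0 gained it and 1 lost it, against 2.08% and 0.599%. The gene lost was the same in both. For H3K14ac, 6 were gained and 3 lost in hda9-1, and 5 were gained and 3 lost in pwr-2, each from 1 library per genotype and each to be read against the shares of all genes given above.

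The relatives of WUS and WOX5 mostly resembled them. Of 13 other WOX homeobox genes, 11 were marked with H3K9ac in no library and 9 had no peak base in any of the 9 libraries. These 9 included WOX1 and WOX3 of the leaf margin and WOX4 of the vascular cambium. WOX2, an embryo patterning gene, and WOX13, a broadly expressed member, were the exceptions. H3K9ac covered 73.7% and 100% of WOX2 in hda9-1, 50.4% and 100% in pwr-2, and 27.0% and 73.7% in WT. The WOX2 values of hda9-1 and WT met at 73.7%, and those of pwr-2 overlapped both. WOX13 was covered over 87.0% and 87.0% in hda9-1, 87.0% and 72.5% in pwr-2, and 62.1% and 87.0% in WT, and counted as gained for H3K14ac in hda9-1 although its H3K14ac cover was 62.1% in hda9-1, 51.8% in pwr-2 and 62.1% in WT. WOX9 and WOX12 each had a thin peak in 1 WT library, of 0.709 and 0.590 times the library's median density.

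In the CLAVATA pathway, 7 of 16 genes were marked with H3K9ac in all 6 libraries and 3 in none. The best covered were the CLV1-related receptor kinases BAM1 and BAM2 and the receptor-like kinase AT4G30520 (SARK). BAM2 was covered over 99.1% and 99.1% in hda9-1, 98.3% and 99.1% in pwr-2, and 99.1% and 86.6% in WT. BAM1 was covered over 83.7% and 100% in hda9-1, 94.4% and 83.7% in pwr-2, and 84.8% and 84.8% in WT. CRN, the membrane-bound partner of CLV2, was covered over 69.3% and 69.3% in hda9-1, 39.4% and 69.3% in pwr-2, and 47.3% and 69.3% in WT. CLE40, the CLV3-like peptide gene of the root, had no peak base in any of the 9 libraries.

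BAM3, a phloem receptor of the same family, varied within each genotype, with H3K9ac over 0% and 68.6% in hda9-1, 0% and 34.7% in pwr-2, and 0% and 56.5% in WT. Its H3K14ac cover was 0% in hda9-1, 0% in pwr-2 and 62.9% in WT, and it counted as lost in both mutants. PLL1, a phosphatase of the POLTERGEIST type that acts downstream of CLV signalling, also counted as lost for H3K14ac in both, with 30.8% in hda9-1, 24.7% in pwr-2 and 49.3% in WT. BAM2 counted as lost in pwr-2, with H3K14ac over 87.5% in hda9-1, 75.8% in pwr-2 and 87.5% in WT. The receptor-like kinase AT2G23950 was gained for H3K14ac in both mutants, at 69.7% in hda9-1, 30.8% in pwr-2 and 0% in WT. Its H3K9ac cover was 33.3% and 38.9% in hda9-1 and 0% in the other 4 libraries. These peaks were thin. H3K14ac had 0.628 times the library's median density in hda9-1 and 0.525 times in pwr-2, and H3K9ac 0.741 and 0.758 times in hda9-1. RPK2, another receptor kinase of the CLV3 pathway, counted as gained for H3K14ac in hda9-1 with 47.2% of it covered, against 75.6% in WT, since the call rests on the gene's ends.

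The partners, targets and niche regulators were the best covered list, with a median H3K9ac cover of 77.4% over its 14 genes, against 27.6% for the CLAVATA pathway, 0% for the WOX family and 21.4% for protein-coding genes. HAM1, a GRAS-domain partner of WUS, was covered over 100% in both hda9-1 libraries, 100% in both pwr-2 libraries, and 100% and 86.9% in WT. The cytokinin response regulators ARR5 and ARR6, of a family repressed by WUS, had H3K9ac peaks in all 6 libraries. ARR15 of that family was covered over 63.3% and 98.4% in hda9-1, 73.1% and 0% in pwr-2, and 85.8% and 0% in WT. ARR5, ARR7 and ARR15 had no base in an H3K14ac peak in any genotype, and the same held for SHR and PLT1 of this list, described below. HAM3 counted as gained for H3K9ac in hda9-1, with 97.4% and 84.9% of the gene covered in hda9-1, 84.9% and 76.4% in pwr-2, and 76.4% and 76.4% in WT.

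SHR, which encodes a mobile root transcription factor needed for the stem cell niche, counted as lost for H3K9ac in both mutants. It had 0 bp covered in all 4 mutant libraries and 1659 and 1400 bp, or 76.3% and 64.4%, in WT. The WT peaks (chromosome 4, 17692201 to 17694000 and 17692401 to 17693800) held 124 and 108 reads and had 0.780 and 0.791 times the median density of their libraries. They were thin peaks in the shallowest libraries, and whether depth had a part in this was not tested. The root niche genes PLT1 and PLT2 resembled CLV3, with 67.7% and 87.1% covered in WT replicate 1 and no H3K9ac peak base in the other 5 libraries.

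For H3K14ac, HAM2, the co-repressor gene TPL and the meristem gene HEC1 counted as gained in both mutants. Cover of HAM2 was 49.5% in each genotype, and that of HEC1 was 47.4% in hda9-1, 47.4% in pwr-2 and 0% in WT. TPL was covered over 12.9% in hda9-1, 12.9% in pwr-2 and 38.6% in WT, so its gain at an end window went with less cover of the gene. ARR6 counted as lost in hda9-1, with 0% there, 25.7% in pwr-2 and 39.7% in WT, and PLT2 as gained in pwr-2, with 0% in hda9-1, 23.2% in pwr-2 and 0% in WT.

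**Figure D5:**
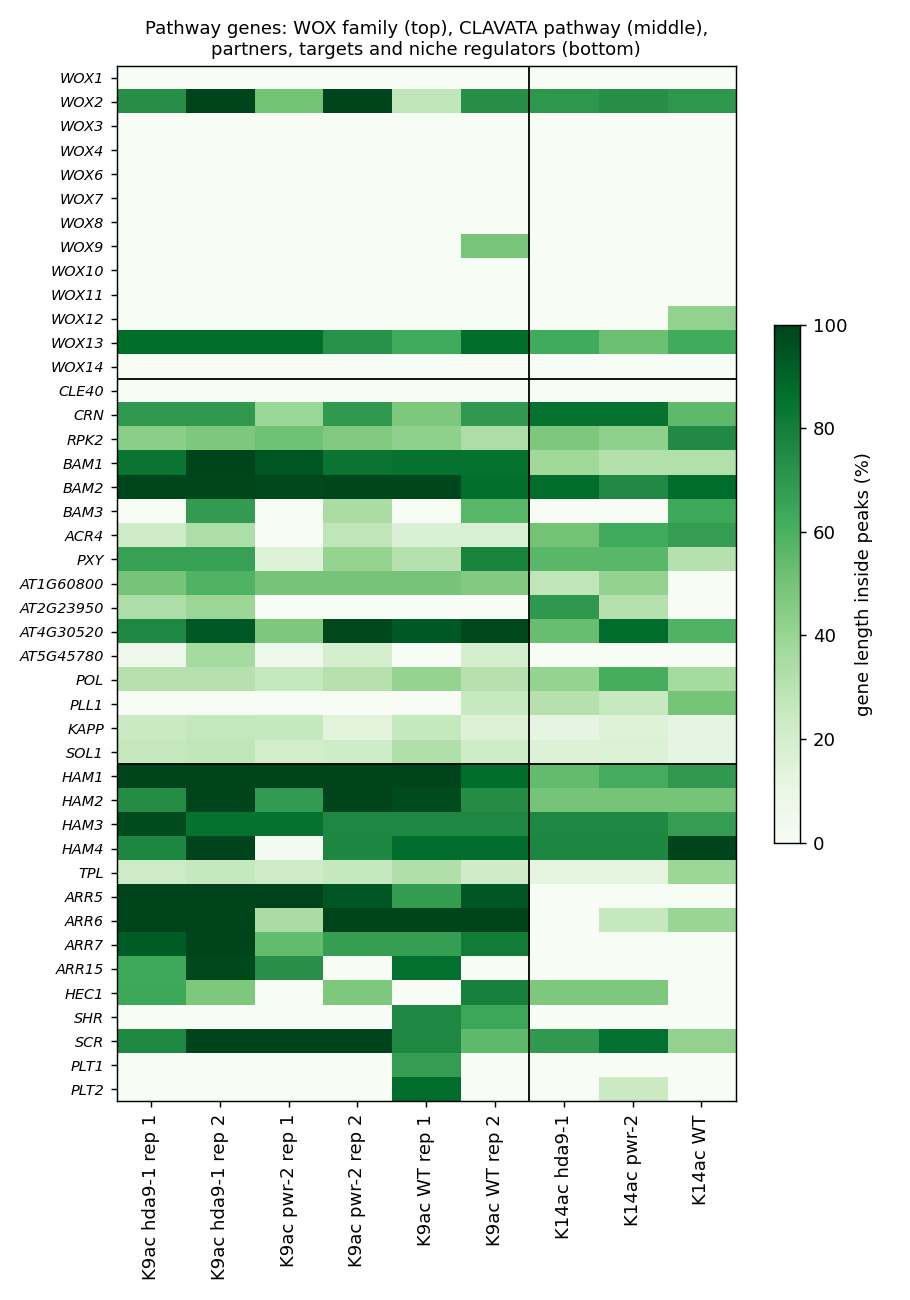
Share of gene length inside peaks (colour, %) for 43 pathway genes in rows and the 9 libraries in columns, H3K9ac left of the line and H3K14ac right of it. Most WOX rows are empty, the HAM genes have some cover in all 9 libraries, and SHR is covered in the WT H3K9ac libraries alone.

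Genes with the cover pattern most like each of the 5 were found by the Euclidean distance of the covered fraction over the 9 libraries, among protein-coding genes with a symbol more than 10000 bp away. For CLV1 they were LPPbeta (distance 0.258), ATXRCC1 (0.303) and GSTU19 (0.324). For CLV2 they were CUL3B (0.185), ATNTH1 (0.212) and MGT6 (0.217). Full cover in WT replicate 1 and none elsewhere, as at CLV3, occurred at 4 such genes. Over all genes, those marked in a single H3K9ac library numbered 252 and 540 in hda9-1, 371 and 214 in pwr-2, and 447 and 700 in WT. For WOX5 the nearest were MYB89, CYP71B9 and RAX2 (distances 0.0017 to 0.0066), a likeness that rests on the 40 bp in pwr-2 replicate 1.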

How the data were processed

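Seedling chromatin was sheared to about 200 bp before immunoprecipitation, per the labels' protocols. The submitters' processing notes name Bowtie, SICER (which calls enriched islands) and TAIR10; versions, thresholds and duplicate removal were not stated there. The 9 deposited lists give a position and a whole-number count per peak, called library by library. They have no header, so the count was read as reads in the peak. Peaks move in steps of 200 bp.

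Cover was computed as bp of a gene inside peaks. Genes came from RefSeq TAIR10.1, which gives no strand here, so both gene ends were used and only peak positions (TAIR10) are printed. In 45 of 45 combinations of library and chromosome, gene cover was highest without shifting the peaks. H3K9ac peaks were merged into 12753 regions, of which 8332 had a peak in all 6 libraries and were tested with edgeR 4.0.16 (TMM, no replicate block) in R 4.3.3. The SE of a log2 change was derived from its F statistic. DESeq2 1.42.0 was an alternative. Cover was compared with exact permutation tests (scipy 1.17.1). The cover arithmetic and the edgeR test were tested on simulated data.

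Members and lists were chosen with earlier results of these data known. Genes named were the 5 members, their peak-sharing neighbours and nearest patterns and, of the lists, every gene gained or lost and the 3 best covered. WOX1, WOX3, WOX4, WOX9, WOX12, CRN, CLE40, ARR7, ARR15 and PLT1 were named after their values were seen. AT4G30520 and AT2G23950 are given as annotated.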

Additional observations from a re-analysis of the deposited data

How the results depend on the processing

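Of 80 recomputed cover differences, 72 kept from turning sign and moved by no more than the replicate SD (H3K9ac) or 200 bp (H3K14ac). Another 6 moved further and 2 turned sign. Leaving out 1 of 2 libraries cannot move a difference beyond this SD, and WUS had 0 bp in every library. Much of the count was therefore fixed in advance and is no measure of stability. With 500 bp added on both sides, the H3K9ac differences became 140 and 270 bp for WOX5, -414.5 and -514.5 bp for CLV2, and -910 and -910 bp for CLV3 (hda9-1 and pwr-2 minus WT in this order, as below). Leaving out 1 library at a time moved CLV1 between -528.5 and 528.5 bp and between -328.5 and 728.5 bp, CLV2 between -299.5 and -29.5 bp and between -399.5 and -129.5 bp, and CLV3 between -820 and 0 bp in both; the sign for CLV1 in pwr-2 turned without WT replicate 1 or pwr-2 replicate 2. Members gained stayed at 0 under every setting run; members lost for H3K9ac ranged from 0 to 1 in each mutant with 1 library left out (CLV3, without WT replicate 2), and for H3K14ac became 1 and 1 (CLV2) where 50% of the whole gene had to be covered.

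Over all genes, H3K9ac gains (1450 and 789) ranged from 1872 to 3216 and from 1486 to 2000, and losses (166 and 227) from 227 to 1005 and from 341 to 1222, with 1 library left out. The rule then asks fewer libraries to agree, so these counts could only stay or rise. Their rise is no measure of stability. With peaks kept from the densest down to equal cover, gains in hda9-1 were 872 and losses 837 and 502; with 50% of the whole gene, losses were 257 and 405. The cause of the shifts at equal cover and with the whole gene was not tested.

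Reads in the CLV2 region changed by 0.34 and 0.32 (log2) per covered bp, and ranged from -0.80 to 0.18 and from -0.74 to 0.25 with 1 library left out. CLV1 ranged from -0.38 to -0.05 and from -0.37 to -0.04. The MEE34 region, which touches WOX5 (0.36 and 0.06), changed by -0.40 and -0.34 per covered bp and ranged from 0.15 to 0.53 and from -0.10 to 0.21. That region also holds AT3G11280, AT3G11285 and AT3G11290, so its reads are not those of MEE34 alone. Regions called were 154 and 204 with DESeq2, 1 and 1 per covered bp, and 0 otherwise, including every left-out library. With the replicate number as a block, CLV1 changed by -0.22 and -0.22 and CLV2 by -0.42 and -0.34, with 0 regions called; deviations of same-numbered libraries correlated at 0.163, 0.0799 and 0.172, so the numbers were not taken as pairs. Depth limits the absence of peaks: the WT libraries were the shallowest.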
